A study of Mus musculus with 39 samples.

Results

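The 55 genes described here drive entry into M phase and the separation of chromosomes. They were chosen by name, with earlier results of these data known, as every array probe whose gene name in the scanner output, or whose current symbol, is one of the 55. All 55 had at least 1 probe, among 22327 named genes on the array, and 54 of them were among the 16002 genes tested. The exception was Aurkb, whose probe was too dim at the stages of the inhibitor experiment. The samples were mouse GV and MII oocytes and embryos made by in vitro fertilization from B6D2F1 females of 8-9 weeks and ICR males. Embryos were either untreated or held in 10 µM T247, an inhibitor selective for HDAC3, or 10 µM MGCD0103, which acts mainly on class I HDACs. Exposure lasted 6 h from 4 h after insemination, and the embryos then went back to medium without inhibitor. Control, T247 and MGCD0103 embryos were collected at the 1-cell stage (12 h after insemination) and the 2-cell stage (24 h), and control and T247 embryos at the 4-cell stage (48 h). Untreated 8-cell embryos, morulae and blastocysts completed the 13 conditions, each with 3 independent samples of 100 embryos on 39 one-colour arrays. No 4-cell MGCD0103 embryos were among the samples. Both drugs were given once to whole embryos, so each value is an average over the embryos of a sample, and fewer cells or embryos of a kind cannot be told apart from less RNA per cell.

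M phase begins when CDK1, bound to a B- or A-type cyclin as M-phase promoting factor (MPF), is freed from the inhibitory phosphorylation laid down by WEE1 and removed by the CDC25 phosphatases. The chromosomes are packed by condensin, held together by cohesin and caught by microtubules at the kinetochore, while the spindle checkpoint holds back the anaphase promoting complex (APC/C) until every chromosome is attached. CDC20 then activates the APC/C, securin (Pttg1) is destroyed and separase (Espl1) cuts cohesin. Oocytes store many of these messages and stop at metaphase II through the cytostatic factor (Mos and Fbxo43, which encodes EMI2). The embryo replaces the stored messages after its own genome becomes active.

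Levels are given as normalised log2 signal of the brightest probe of a gene, so they can be compared between samples for 1 gene but not between genes. A gene was called changed when its log2 fold change (LFC) was at least 1 in size and its adjusted p was below 0.05 (limma, Benjamini-Hochberg over the 16002 genes). Where no array of a group was well above background, the fold is given as at least a value, with that group raised to a floor. The floor is the lowest signal well above background of any probe on each array. It can lie below the background limit of the probe itself, so these folds are approximate and not strict limits. Between 62.4% and 77.3% of probes were positive and significant on an array and no spot was saturated. Arrays of a condition correlated at 0.985 or above, except the 2-cell controls (0.933 to 0.993), where replicate 1 stood apart, and results at that stage are therefore also given without it. Each of the 3 control slides held 1 array of every untreated stage, whereas the treated arrays lay on slides of their own, so that inhibitor and slide cannot be told apart. All 7 oocyte markers were well above background at the 2-cell and 4-cell stages, and the 4 tested genes of 2-cell genome activation rose from the 1-cell to the 2-cell stage. Of 7 cumulus and granulosa markers, Amh, Inhba and Ptx3 were well above background on no 2-cell array, and Tnfaip6 on none with either drug. Has2, Cyp19a1 and Foxl2 were well above background on at least 1 array of each 2-cell group, and Tnfaip6 on at least 1 control array. Carry-over of such cells was not tested.

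Of the 55 genes, 15 had several probes, and the choice of probe decided the direction of several results, so the probes behind them are shown first. Each line gives the gene, the probe, its position on mm9 (the build named in the file headers) and the first 30 bases of its 60; the first line of each gene is the brightest probe, used for the levels here. Capitals mark the stretch that overlaps a second probe of the same gene. The exon or UTR under each probe was not looked up, and whether a probe also matches another gene copy was not tested.
Ccnb1 A_55_P2065671, chr13:101548722-101548781, minus strand: gccacctggaaaagaatcctgtctcatttg
Ccnb1 A_55_P1952256, chr13:101551224-101551283, minus strand: tatgaggagatgtaccctccagaaataggt
Ccnb1 A_55_P2128668, chr13:101553449-101553508, minus strand: tgagtgatgtagacgcagatgatggagctg
Nuf2 A_55_P2076048, chr1:171428989-171429048, minus strand: atctttgtaaacttgaaaagtgctctggag
Nuf2 A_55_P2113964, chr1:171440451-171440510, minus strand: gcactctctgaactacttagtgtctgtgca
Mad2l1 A_55_P2133255, chr6:66490836-66490895, plus strand: cgaaatgcagcagtaagacacatttctctt
Mad2l1 A_55_P2138333, chr6:66490067-66490126, plus strand: tgtgtgttattgttccatttcttgggttct
Pttg1 A_55_P1987499, chr11:43233801-43233860, minus strand: ccgcctgtttgttacgatgcagatatttaa
Pttg1 A_55_P2110738, chr11:43234562-43234621, minus strand: tcatgggaatctggtaagggagtccgttca
Tpx2 A_51_P369200, chr2:152719476-152719535, plus strand: cgccatgtttggaaacacacctgataacta
Tpx2 A_55_P2003576, chr2:152720285-152720344, plus strand: gcccagtgcaaaggcatgtatttcaactta
Cdk1 A_55_P2048588, chr10:68801072-68801131, minus strand: ttcttaatttcctacgtatAACTTAATTAA
Cdk1 A_55_P2016652, chr10:68801053-68801112, minus strand: AACTTAATTAACATGTAAATATTATTCCAT
Cdk1 A_55_P2016647, chr10:68799513-68799572, minus strand: atacactaaaaatttgggtagccaggaggt

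Over the 39 arrays, 8 of 20 probe pairs had a Pearson correlation of 0.9 or more, 9 lay between 0 and 0.9, and 3 were below 0. These are descriptions across arrays that share stages and slides, and no test was made. The negative pairs belonged to Nuf2, a subunit of the NDC80 complex that binds microtubules (r = -0.91 and -0.54), and to Ect2, the exchange factor that starts cytokinesis (r = -0.60). The probes of Ube2c, Birc5, Incenp, Cdca8, Aurkc and Fzr1 ran together. Of 65 called changes in a gene with another probe, the other probe had the same sign in 46 and the opposite sign in 19. In 8 of those 19, in Ccnb1, Mad2l1, Nuf2, Pttg1 and Tpx2, the other probe was well above background on all 6 arrays.

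**Figure D1:**
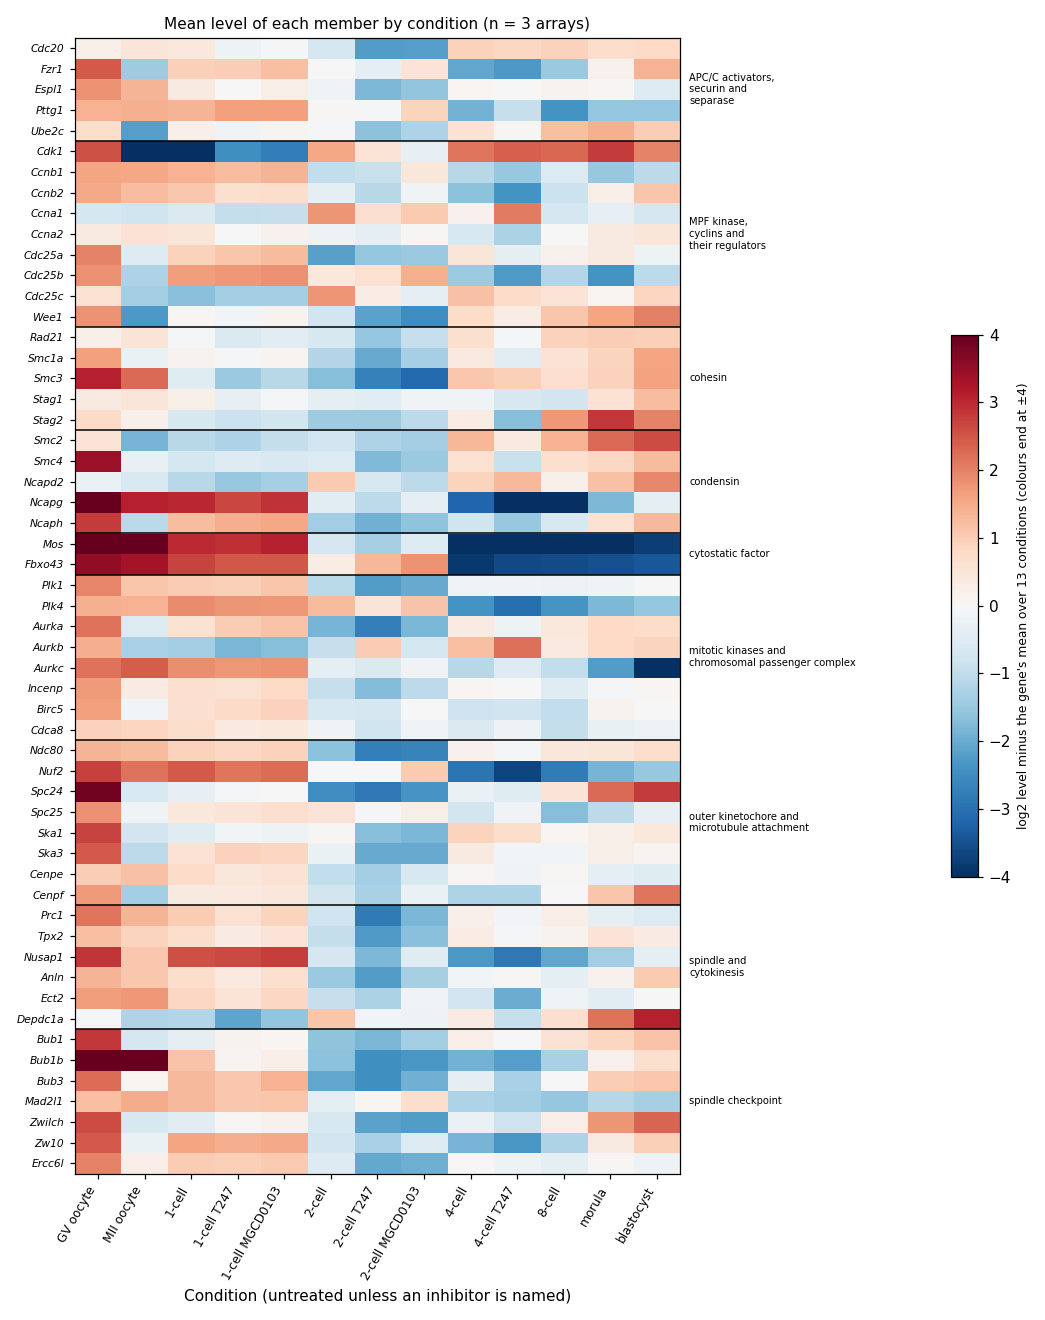
Mean log2 level of each gene in each of the 13 conditions (n = 3 arrays), minus the mean of that gene over the conditions; red is above and blue below the gene's mean, the colours end at 4 log2 units either way, and lines divide the genes by role. On this smooth quantile scale 34 of the 54 tested genes have their highest mean in GV oocytes and 21 their lowest at the 2-cell stage, and the Mos and Fbxo43 rows turn blue from the 4-cell stage on.

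In untreated oocytes and embryos, the stage at which these messages were highest depended on the scaling. Of the 54 tested genes, 34 had their highest mean in GV oocytes (39.8% of all 16002 genes did), 6 in MII oocytes, 6 in blastocysts and 4 in morulae. After full quantile normalisation 12 were highest in GV oocytes (10.8% of all genes) and 17 in MII oocytes (20.6%), and after scaling to the 75th percentile 10 (12.8%) and 21 (24.4%). The lowest mean lay at the 2-cell stage in 21 of the 54 (16.7% of all genes), and in 13 (18%) and 17 (14.9%) under the other scalings. The stage comparisons below set each stage against the one before it, and every called change in them but 1 had the same sign on all 3 slides. The exception was a call between the 4-cell and 8-cell stages.

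From GV to MII oocytes, 28 of 54 genes fell and 0 rose (limma; 48.9% of all genes were called, 0.394% up and 48.5% down), with a median LFC of -1.08 against -0.97 for all genes. The split of calls depended on the scaling, with 11 genes up and 19 down after full quantile normalisation and 19 up and 18 down after scaling to the 75th percentile, when the median of all genes moved to 0.30 and 0.34. Cdk1, Wee1, Cdc25a, Cdc25b, Spc24, Fzr1 and Mos fell under all 3 scalings. The spindle checkpoint list had 6 of 7 genes down and the MPF list 5 of 9. Cdk1, the M-phase kinase, went from 12.26 ± 0.16 to 3.29 ± 0.76 (SD, n = 3), where only 1 of 3 MII arrays was well above background. The LFC was -8.97 on the brightest probe, and A_55_P2016652, which shares 41 bases with it and was not well above background at MII, was at least 18.5-fold lower. Wee1, the kinase that restrains CDK1, fell by 4.09 and its opponents Cdc25b and Cdc25a fell by 3.08 and 2.5. Cdc25c fell by 1.97, and Bub1b had an LFC of -1.02 that turned to 0.35 with 75th-percentile scaling. Spc24, a subunit of the NDC80 complex, fell by 4.45 and Fzr1, which encodes the APC/C activator CDH1, by 3.89. Mos, the kinase at the head of the cytostatic pathway, fell by 3.34, from 15.03 ± 0.06 to 11.69 ± 0.42. By contrast, the cyclin Ccnb1 (16.56 ± 0.04 and 16.54 ± 0.07), Cdc20 (15.23 ± 0.03 and 15.48 ± 0.12) and Pttg1 (17.52 ± 0.03 and 17.56 ± 0.05) were near the same level in both.

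After fertilization, 13 of 54 genes rose and 4 fell from MII to the 1-cell stage (22.4% of all genes called, 17.2% up and 5.21% down), with a median LFC of -0.01 against 0.15. The MPF list held 4 of the 13 that rose. Cdc25b rose by 2.92, Wee1 by 2.37, Cdc25a by 1.44, Fzr1 by 2.38, and Ube2c, the ubiquitin-conjugating enzyme of the APC/C, by 2.40. Bub1b, which encodes the checkpoint protein BUBR1, fell by 3.09, the cohesin core subunit Smc3 by 2.76, Mos by 2.36 and Espl1 by 1.03. Cdk1 gave an LFC of 2.19, with 2 of 3 1-cell arrays and 1 of 3 MII arrays well above background.

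Between the 1-cell and 2-cell stages the direction was mostly down. Of the 54 genes, 33 fell and 5 rose (52.3% of all genes called, 18.7% up and 33.6% down), and the median LFC was -1.29 against -0.48 for all genes. Without 2-cell control replicate 1, 36 fell and 5 rose. Of the roles, 6 of 7 spindle checkpoint genes fell, as did 5 of 6 spindle and cytokinesis genes, 5 of 7 mitotic kinase and passenger genes, and both cytostatic factor genes. Mos fell by 3.63, the condensin subunit Ncapg by 3.45, the checkpoint protein Bub3 by 3.37, the spindle protein Nusap1 by 3.26, Cdc25a by 3.09 and Bub1b by 2.79. Plk1, the polo-like kinase of mitotic entry, fell by 2.07, Cdc25b by 1.25 and Cdc20 by 1.14. Ccnb1 fell by 2.38, Fbxo43 by 2.42 and Mad2l1, the checkpoint protein MAD2, by 1.66, all against 2-cell controls of wide spread (13.98 ± 1.20, 6.05 ± 1.74 and 13.23 ± 0.98). Against this, Cdc25c rose by 3.44, from 6.35 ± 0.34 to 9.79 ± 0.27, the condensin subunit Ncapd2 by 2.15 and Depdc1a by 2.28. Cdk1 rose by 5.78, to 11.26 ± 0.51 from 5.48 ± 1.01, with 2 of 3 1-cell arrays well above background. Ccna1, the germ cell A-type cyclin, rose by 2.34, from a 1-cell level well above background on 1 of 3 arrays.

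Several of these 2-cell falls did not hold on a second probe. The brightest Nuf2 probe fell by 2.45 whereas A_55_P2113964, not well above background at the 1-cell stage, was at least 22.4-fold higher, the brightest Pttg1 probe fell by 1.31 against 2.42 on A_55_P2110738, and the brightest Ect2 probe fell by 1.75 while the other, also dim at the 1-cell stage, was at least 5.36-fold higher. For Cdk1 the overlapping probe A_55_P2016652 was at least 13.2-fold higher, the same direction as 5.78, while A_55_P2016647 was not well above background at either stage. The fall of Nuf2, Pttg1 and Ect2 into the 2-cell stage is thus a statement about 1 probe each.

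Of 54 genes, 18 rose and 13 fell from the 2-cell to the 4-cell stage (60.1% of all genes called, 24.4% up and 35.7% down), with a median LFC of 0.31 against -0.29. Without 2-cell control replicate 1 there were 19 up and 11 down, and after scaling to the 75th percentile 26 up and 10 down, with the median of all genes at 0.17. In the cohesin list 4 of 5 genes rose, led by Smc3 at 2.78. Cdc25a rose by 2.67, Spc24 by 2.22, the spindle pole kinase Aurka by 2.21, Cdc20 by 1.64 and Wee1 by 1.5. The oocyte messages left the measurable range. Fbxo43 was at least 16.5-fold lower and Mos at least 11.2-fold lower at the 4-cell stage, where neither was well above background on any array. Plk4, the kinase of centriole duplication, fell by 3.66, Pttg1 by 1.92 and Cdc25b by 1.86, and Ccna1 was at least 3.00-fold lower. Nuf2 fell by 2.94 on its brightest probe, with a difference of 1.55 on A_55_P2113964.

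Little of this group changed between the 4-cell and 8-cell stages. Of 54 genes, 2 rose and 0 fell (limma; 15.0% of all genes called, 7.75% up and 7.21% down). The cohesin subunit Stag2 rose by 1.43, and Cenpf, a dim kinetochore message well above background on 1 of 3 8-cell and no 4-cell arrays, was at least 2.40-fold higher with overlapping arrays. From 8-cell to morula 14 rose and 2 fell (36.6% called, 30.2% up and 6.44% down), but the split was 1 up and 5 down after quantile normalisation and 2 up and 6 down after 75th-percentile scaling. Over all genes 82.4% of the calls there were up in the smooth quantile fit and 51% with quantile normalisation, so most of the 14 rises rest on the smooth quantile scaling. The chromosomal passenger kinase of oocytes, Aurkc, fell by 1.25 from 8-cell to morula and by 1.87 from morula to blastocyst, from 17.12 ± 0.10 in GV oocytes to 10.84 ± 0.32 in blastocysts. The rises of Spc24 (1.76), Fzr1 (1.64) and Zw10 (1.62) into the morula all lost their call under at least 1 other scaling. Ncapg was at least 4.80-fold higher in morulae than in 8-cell embryos, where no array was well above background, and its LFC from morula to blastocyst was 1.44. Between morula and blastocyst 5 of 54 genes rose and 1 fell (26.8% called, 19.2% up and 7.57% down), among them Cdc25b by 1.33 and Fzr1 by 1.24.

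At the 1-cell stage, after the inhibitor had been removed, few of these genes differed from the control. With T247, 1 gene rose and 1 fell (6.11% of all genes were called, 5.51% up and 0.600% down), and with MGCD0103 1 rose and 0 fell (limma; 3.87% called, 3.45% up and 0.419% down). The gene that rose was Cdk1. Its signal on the control arrays was 6.09, 4.31 and 6.05, on the T247 arrays 7.32, 7.21 and 7.25, and on the MGCD0103 arrays 6.88, 7.17 and 6.86. The treated arrays all lay above the controls, of which the middle one was not well above background. The LFC was 1.78 ± 0.32 (SE; adjusted p = 0.000156) with T247 and 1.49 ± 0.32 (adjusted p = 0.00185) with MGCD0103. Without that middle array, control replicate 2, the MGCD0103 LFC was 0.90 and not called. The probe that overlaps it, A_55_P2016652, was well above background on none of these arrays. Bub1b, the checkpoint kinase-like protein, read 11.44, 12.47 and 11.65 in controls and 10.95, 10.69 and 10.87 with T247, without overlap, an LFC of -1.01 ± 0.17 (adjusted p = 4.69e-05). It was not called without control replicate 2 (-0.71) or without T247 replicate 2 (-0.94). With MGCD0103 Bub1b read 10.99, 10.98 and 11.00, an LFC of -0.86 that did not reach the fold limit. Without the fold limit, 4 genes were higher and 11 lower at adjusted p below 0.05 with T247 (11.5% and 7.49% of all genes), and with MGCD0103 3 were higher and 4 lower (10.1% and 2.52%).

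At the 2-cell stage more of these genes differed. With T247, 19 of 54 genes fell and 0 rose (limma; 25.2% of all genes called, 8.98% up and 16.2% down), with a median LFC of -0.73 against -0.26 for all genes. Without the fold limit 35 were lower and 1 higher (36.4% and 15.5% of all genes). With MGCD0103, 15 fell and 4 rose (27.7% called, 12.4% up and 15.3% down), and the median was -0.06 against 0.06, and without the fold limit 23 were lower and 10 higher (27.7% and 26.6%). The T247 falls numbered 14 after quantile normalisation and 13 after 75th-percentile scaling, each with 1 gene up, while the median of all genes moved to -0.04 and -0.05. Without 2-cell control replicate 1 there were 18 down and 2 up. For MGCD0103 the splits were 7 up and 15 down, and 5 up and 13 down. T247 and MGCD0103 were each compared with the same 3 control arrays.

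**Figure D2:**
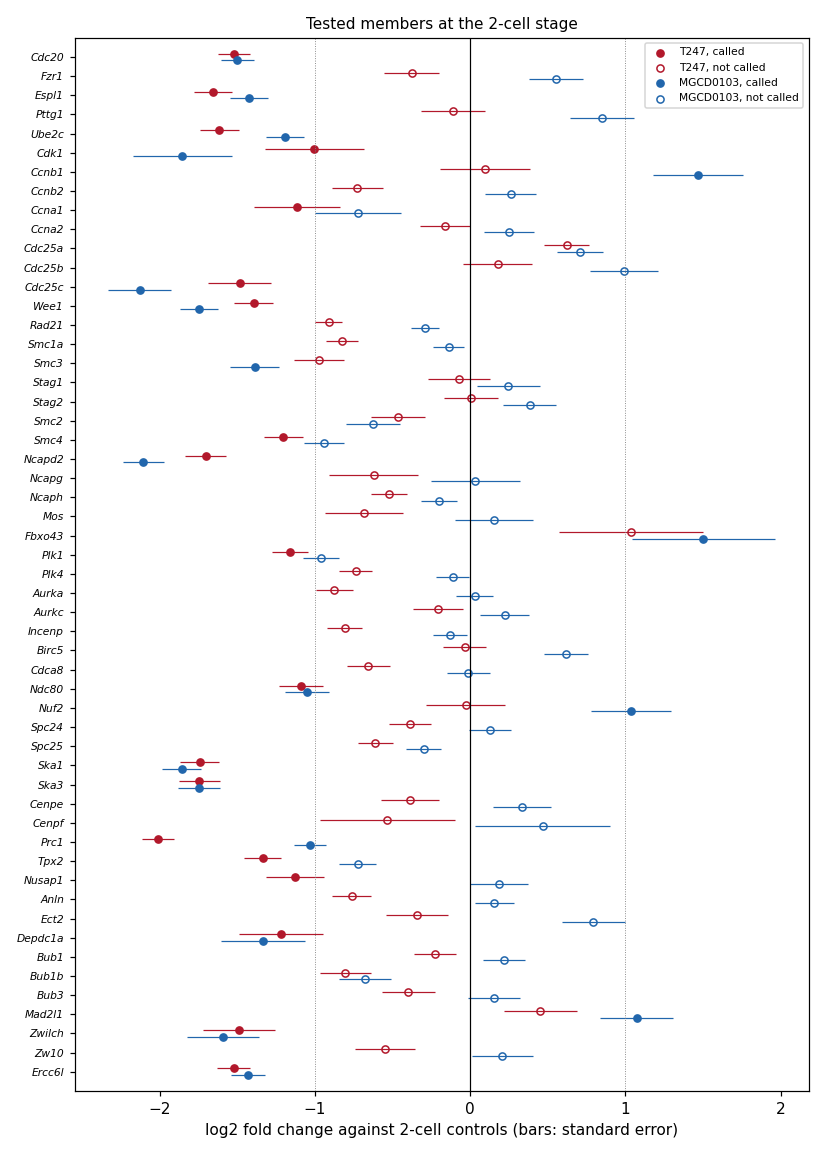
Log2 fold change at the 2-cell stage, with its standard error, of the 54 tested genes for T247 against control and MGCD0103 against control. With T247 the called genes lie between -2.01 and -1.0; with MGCD0103 they lie between -2.13 and -1.03 and between 1.04 and 1.5.

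Among the genes of anaphase, 3 of 5 APC/C, securin and separase genes fell with each drug. Cdc20 read 14.14, 14.27 and 14.42 in controls, 12.81, 12.80 and 12.66 with T247 and 12.95, 12.64 and 12.76 with MGCD0103. No treated array reached the lowest control. The LFC was -1.52 ± 0.11 (adjusted p = 1.65e-12) with T247 and -1.5 ± 0.11 (adjusted p = 1.4e-12) with MGCD0103. Espl1 read 11.18, 11.69 and 11.56 in controls, 9.88, 9.84 and 9.75 with T247 and 10.05, 10.13 and 9.97 with MGCD0103, again without overlap, and fell by 1.65 and by 1.43. Ube2c read 12.94, 13.14 and 13.03 in controls, 11.47, 11.44 and 11.36 with T247 and 11.89, 11.87 and 11.78 with MGCD0103, and fell by 1.61 and by 1.19. Its other probe, A_55_P1996941, gave -1.47 and -1.0. Securin, the protein that Cdc20 marks for destruction, had an LFC of -0.11 with T247 and 0.85 with MGCD0103 and was called with neither.

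Of the 9 MPF genes, 4 fell with T247, and 3 fell and 1 rose with MGCD0103. Cdc25c, one of the CDK1-activating phosphatases, read 9.48, 9.92 and 9.97 in controls, 8.58, 8.13 and 8.22 with T247 and 7.55, 7.65 and 7.79 with MGCD0103. The 3 groups did not overlap, and the LFC was -1.48 ± 0.20 (adjusted p = 4.7e-07) and -2.13 ± 0.20 (adjusted p = 6.94e-10). Wee1, which opposes it, read 7.84, 8.36 and 8.01 in controls, 6.55, 6.57 and 6.90 with T247 and 6.30, 6.40 and 6.28 with MGCD0103, with an LFC of -1.39 ± 0.12 (adjusted p = 2.02e-10) and -1.75 ± 0.12 (adjusted p = 1.95e-12). Both the activator and the inhibitor of CDK1 were thus lower, while Cdc25a had an LFC of 0.62 and 0.71 and Cdc25b of 0.18 and 0.99, none of them called. The cyclin A gene of somatic cells, Ccna2, had an LFC of -0.16 and 0.25.

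Cdk1 read 10.67, 11.57 and 11.54 in controls, 10.32, 10.22 and 10.23 with T247 and 9.34, 9.18 and 9.70 with MGCD0103. The groups did not overlap, and control replicate 1 lay nearest to the T247 arrays. The LFC was -1.0 ± 0.32 (adjusted p = 0.00984) and -1.85 ± 0.32 (adjusted p = 1.81e-05). The T247 call was lost without control replicate 2 (-0.85) or 3 (-0.86) and without T247 replicate 2 (-0.98) or 3 (-0.99). Its other probes differed, with -0.58 for MGCD0103 and 1.20 for T247 on A_55_P2016652. When the probes were averaged the T247 difference of Cdk1 was 0.26. A_55_P2016647 was well above background on 3 of 3 MGCD0103 arrays and on no control or T247 array, and was at least 2.36-fold higher with MGCD0103 than in controls.

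Plk1, of the list of polo-like and Aurora kinases and their partners, read 13.56, 13.05 and 13.10 in controls, 12.21, 12.06 and 11.97 with T247 and 12.39, 12.25 and 12.20 with MGCD0103. It was the 1 gene of 7 in this list to fall with T247 (LFC -1.16 ± 0.12, adjusted p = 1.64e-09; -0.995 and not called without control replicate 1), and none of the 7 was called with MGCD0103, where Plk1 had an LFC of -0.96. Aurka had an LFC of -0.88 with T247 and 0.03 with MGCD0103. Aurkb, the kinase of the chromosomal passenger complex and the 1 gene outside the tests, read 2.09, 2.28 and 4.06 in controls, 4.70, 4.78 and 4.80 with T247 and 3.77, 2.10 and 3.26 with MGCD0103. It was well above background on the T247 arrays and on none of the others.

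At the kinetochore, 3 of 8 outer kinetochore genes fell with T247, and 3 fell and 1 rose with MGCD0103. Ska1, of the complex that keeps kinetochores on microtubule ends, read 11.38, 12.01 and 12.01 in controls, 10.14, 10.05 and 9.97 with T247 and 9.92, 9.99 and 9.91 with MGCD0103, and fell by 1.74 and by 1.86. Its partner Ska3 read 9.86, 9.30 and 9.21 in controls, 7.82, 7.76 and 7.56 with T247 and 7.73, 7.83 and 7.57 with MGCD0103, and fell by 1.74 and by 1.75. All treated arrays of both genes were more than 1 log2 unit below the lowest control. The NDC80 subunit Ndc80 fell by 1.09 and by 1.05, but was called with neither drug without control replicate 2 (-0.98 and -0.94), nor with MGCD0103 without control replicate 3 (-0.99) or MGCD0103 replicate 3 (-0.98). Of the 7 checkpoint genes, Zwilch, of the complex that brings dynein to kinetochores, fell by 1.49 and by 1.59, and the PLK1-interacting helicase Ercc6l by 1.52 and by 1.43.

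Spindle and condensin genes followed. Prc1, which bundles the midzone microtubules, read 13.21, 13.69 and 13.53 in controls, 11.44, 11.52 and 11.44 with T247 and 12.67, 12.37 and 12.30 with MGCD0103. The 3 groups did not overlap, and the fall was larger with T247 (LFC -2.01 ± 0.10, adjusted p = 1.03e-14) than with MGCD0103 (-1.03 ± 0.10, adjusted p = 1.5e-09). The MGCD0103 call was lost without control replicate 2 (-0.93) and without MGCD0103 replicate 2 (-0.996) or 3 (-0.96). The difference between the drugs, 0.98, was just short of the fold limit. Of 6 spindle and cytokinesis genes, 4 fell with T247 and 2 with MGCD0103. Tpx2, the Aurora A activator, fell by 1.34 with T247, although A_55_P2003576 gave 0.36, and had an LFC of -0.72 with MGCD0103, where that probe gave 1.31. Ncapd2 read 12.43, 13.04 and 13.01 in controls, 11.30, 11.10 and 10.96 with T247 and 10.64, 10.73 and 10.79 with MGCD0103, and fell by 1.70 (adjusted p = 1.03e-11) and by 2.10 (adjusted p = 1.08e-13). The condensin ATPase Smc4 fell by 1.20 with T247 and had an LFC of -0.94 with MGCD0103. Of 5 cohesin genes none was called with T247 (limma) with all arrays, but Smc3 was without control replicate 1 (-1.09), and Smc3 fell by 1.39 with MGCD0103, reading 8.30, 8.45 and 8.54 against 9.58, 9.98 and 9.89.

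**Figure D3:**
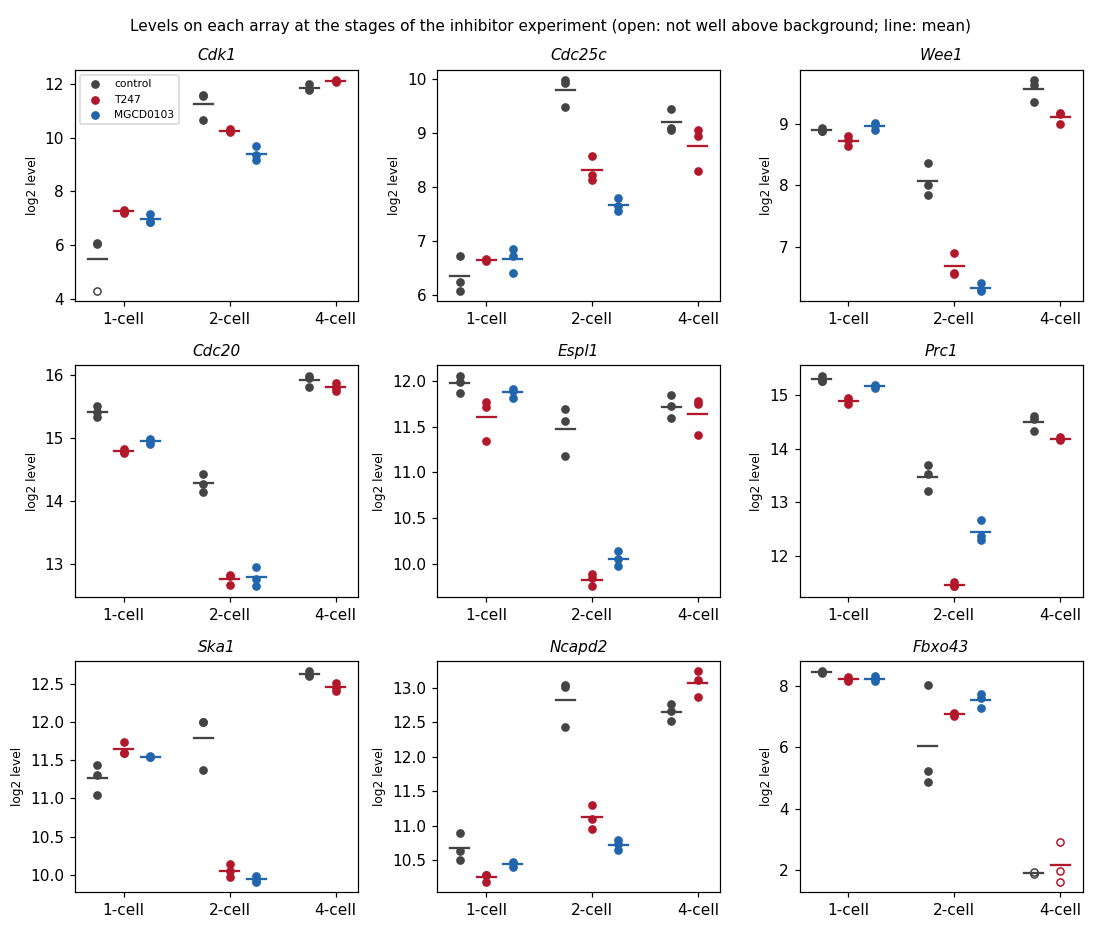
Log2 level on every array of Cdk1, Cdc25c, Wee1, Cdc20, Espl1, Prc1, Ska1, Ncapd2 and Fbxo43 in control, T247 and MGCD0103 embryos of the inhibitor experiment, by stage; open symbols mark arrays not well above background. At the 2-cell stage the treated arrays of Cdc20, Espl1, Ska1 and Ncapd2 lie below all 3 controls, and at the 4-cell stage the Fbxo43 symbols are open.

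The 4 genes that rose with MGCD0103 did so against scattered controls. Ccnb1 read 15.33, 13.01 and 13.61 in controls and 15.68, 15.45 and 15.22 with MGCD0103, and 13.78, 14.22 and 14.23 with T247. Control replicate 1 lay inside the treated range, and the LFC was 1.47 ± 0.29 (adjusted p = 0.000108). Mad2l1 read 14.35, 12.52 and 12.81 in controls and 14.34, 14.28 and 14.28 with MGCD0103 (LFC 1.07 ± 0.23, adjusted p = 0.000333). Nuf2 read 12.15, 10.09 and 10.45 in controls and 12.03, 11.96 and 11.82 with MGCD0103 (1.04 ± 0.26, adjusted p = 0.00116). Fbxo43 read 8.05, 4.87 and 5.22 in controls and 7.62, 7.75 and 7.29 with MGCD0103 (1.5 ± 0.46, adjusted p = 0.00731). For Mad2l1, Nuf2 and Fbxo43 control replicate 1 was the highest of these arrays. Without that array the LFC was 2.14 for Ccnb1, 1.64 for Mad2l1, 1.67 for Nuf2 and 2.50 for Fbxo43. The split with MGCD0103 was 0 up and 14 down without control replicate 2, 1 up and 15 down without control replicate 3, and 0 up and 14 down when only the arrays compared were fitted. Without replicate 1, 8 genes rose and 15 fell with MGCD0103, the additions being Cdc25b, Cenpf, Ect2 and Pttg1, and with T247 Fbxo43 (2.04) and Mad2l1 (1.01) rose and 18 genes fell. Nusap1 (-0.79) and Plk1 were no longer called with T247, and Smc3 was added.

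For 3 of the 4 a second probe did not follow, and Fbxo43 had no second probe to compare. The other Ccnb1 probes, A_55_P1952256 and A_55_P2128668, differed by -0.17 and 0.23 between MGCD0103 and control, and the other Mad2l1 probes by -0.23 and -0.21. For Nuf2, A_55_P2113964 differed by -1.71. Ect2 and Pttg1 split in the same way, at 0.79 and 0.85 on the brightest probe, while the other Ect2 probe was at least 5.87-fold lower, dim with MGCD0103, and the other Pttg1 probe differed by -1.13.

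**Figure D4:**
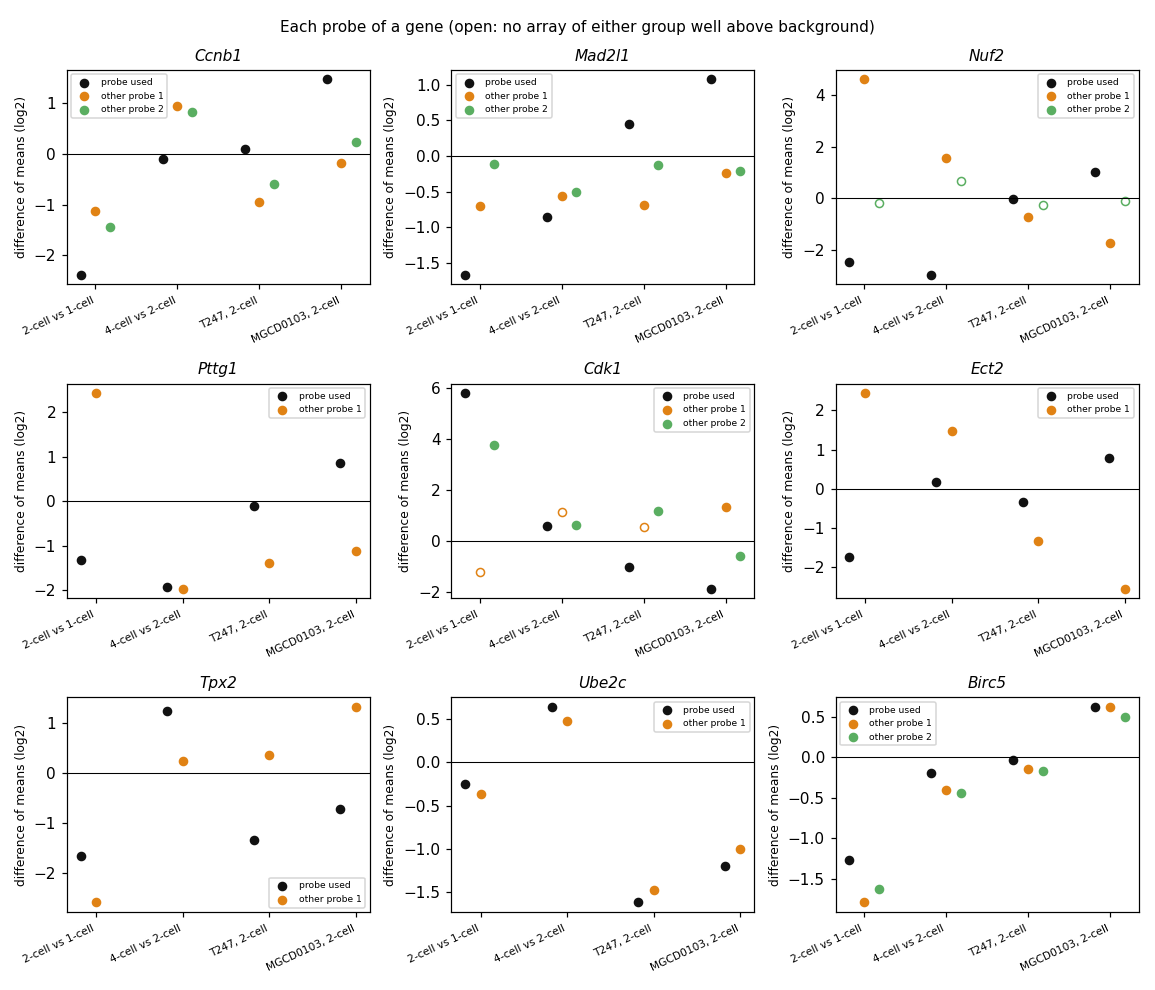
Log2 fold change of each probe of Ccnb1, Mad2l1, Nuf2, Pttg1, Cdk1, Ect2, Tpx2, Ube2c and Birc5 in 4 comparisons. The probes of Ube2c and Birc5 lie together, while those of Nuf2, Pttg1 and Ect2 lie on both sides of 0 between the 1-cell and 2-cell stages. Differences from a group not well above background are drawn as measured and are approximate only.

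Set directly against each other at the 2-cell stage, MGCD0103 was higher than T247 in 4 of 54 genes and lower in 0 (limma; 5.91% of all genes called, 3.25% up and 2.66% down). These were Ccnb1 (1.37), the spindle protein Nusap1 (1.31), Ect2 (1.13) and Nuf2 (1.07). The other Nuf2 probe, A_55_P2113964, gave -1.01, and the other Ect2 probe was not well above background with either drug. After quantile normalisation the count was 1 up and 1 down, and after 75th-percentile scaling 2 up and 0 down. Without the fold limit, 30 genes were higher and 5 lower with MGCD0103 at adjusted p below 0.05 (limma). The matching shares of all genes in each direction were not computed, so this split is not read as particular to these genes. At an unadjusted p below 0.05 there were 39 of the 54, against 43.9% of all genes. Over the 54 genes the difference ran from -0.85 to 1.37, and the 95% intervals together spanned -1.51 to 1.97. At the 1-cell stage no gene was called between the inhibitors (limma; 0.219% of all genes called, 0.0250% up and 0.194% down). There 4 of the 54 had an unadjusted p below 0.05, against 7.96% of all genes. The differences ran from -0.29 to 0.54 with intervals from -0.95 to 1.09.

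The promoters of some genes that fell are shown because cell cycle genes of this phase are known to share the cell cycle genes homology region (CHR, TTTGAA or TTCGAA) and CCAAT boxes, read by the DREAM and MuvB complexes and by NF-Y. The windows are the 120 bases before the annotated start, from RefSeq on GRCm38.p6, with those motifs in capitals on either strand. Ndc80, which fell without either motif in its window, and Ccnb1, which did not fall, are given for comparison. Nusap1, which fell with T247, and Smc3, which fell with MGCD0103, also had neither motif. A second annotated start of Prc1, not shown, had CCAAT but no CHR.
Cdc20, chr4:118437344-118437463, minus strand: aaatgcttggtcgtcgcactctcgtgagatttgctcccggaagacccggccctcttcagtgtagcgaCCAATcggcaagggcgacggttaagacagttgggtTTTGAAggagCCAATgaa
Espl1, chr15:102296173-102296292, plus strand: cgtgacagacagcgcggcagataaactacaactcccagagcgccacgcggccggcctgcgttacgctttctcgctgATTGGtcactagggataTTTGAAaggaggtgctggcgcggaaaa
Ube2c, chr2:164769809-164769928, plus strand: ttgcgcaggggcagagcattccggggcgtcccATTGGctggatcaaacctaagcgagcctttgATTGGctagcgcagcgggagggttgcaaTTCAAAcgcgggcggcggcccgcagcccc
Cdk1, chr10:69352913-69353032, minus strand: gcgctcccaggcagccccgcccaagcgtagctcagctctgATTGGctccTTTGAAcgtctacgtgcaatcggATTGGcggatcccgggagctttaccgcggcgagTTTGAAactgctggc
Prc1, chr7:80294356-80294475, plus strand: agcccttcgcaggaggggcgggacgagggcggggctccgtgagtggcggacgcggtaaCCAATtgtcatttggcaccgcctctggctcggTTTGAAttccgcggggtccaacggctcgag
Ndc80, chr17:71526858-71526977, minus strand: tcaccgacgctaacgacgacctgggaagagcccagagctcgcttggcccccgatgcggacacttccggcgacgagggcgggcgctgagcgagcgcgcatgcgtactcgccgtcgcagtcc
Ccnb1, chr13:100786487-100786606, minus strand: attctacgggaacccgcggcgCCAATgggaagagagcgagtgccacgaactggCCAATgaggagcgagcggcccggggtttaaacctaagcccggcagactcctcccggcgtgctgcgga

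RefSeq promoters were matched for 40 of the 55 genes, 43 promoters in all. Within 250 bases before the start, a CHR lay in 39.5% of the 43 and in 17.1% of 32851 promoters of all genes, and CCAAT in 69.8% and 33.8%. Of the 13 promoters of genes that fell at the 2-cell stage with T247, 61.5% held a CHR and 76.9% CCAAT, against 30% and 66.7% of the 30 of genes not called. With MGCD0103 these shares were 72.7% of 11 for each motif in genes that fell, and 31.0% and 72.4% of 29 in genes not called. The groups were chosen by the measured change, so no test was made, and a match is a description of letters and not of binding.

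Of the other genes of the pathway, 77 of 78 were tested. At the 2-cell stage 14 fell and 1 rose with T247 (median LFC -0.44) and 14 fell and 5 rose with MGCD0103 (-0.16). The 18.2% that fell lies near the 16.2% and 15.3% of all genes that fell with each drug, and the medians of all genes were -0.26 and 0.06. Among the 14 APC/C subunits 3 fell with each, led by Anapc7 (-2.16 and -1.74) and Anapc11 (-2.03 and -1.55). Of 18 genes of CENP-A chromatin and the inner kinetochore, 5 fell with T247, and 3 fell and 2 rose with MGCD0103, with Cenpt at -1.89 and -2.60. The shugoshin gene Sgo2a, which shields centromeric cohesin, fell by 1.19 and by 2.00. Rec8, the meiotic cohesin kleisin, rose by 1.82 and by 1.87. Of the 7 transcription factor genes of the FOXM1, B-MYB and MuvB group, Rbbp4 was the 1 called with each drug (-1.65 and -1.46). Some markers of other cell states differed at this stage too. Of 6 trophectoderm genes, 5 rose with T247 and 4 with MGCD0103 (8.98% and 12.4% of all genes rose). Of 7 oocyte genes, 2 fell with T247 and 1 with MGCD0103 (16.2% and 15.3% of all genes fell). The mean log2 level over the 6 trophectoderm genes was 8.55 to 8.84 on control arrays, 9.96 to 10.02 with T247 and 9.95 to 10.08 with MGCD0103, all 6 well above background in each group. Over the 7 oocyte genes it was 13.64 to 13.86, 13.01 to 13.06 and 13.56 to 13.59. In the same order, the 5 measured genes of 2-cell genome activation gave 12.20 to 12.99, 12.37 to 12.46 and 12.21 to 12.28. The 3 inner cell mass genes gave 8.93 to 9.52, 8.78 to 9.14 and 8.62 to 8.84. Their part in the changes above was not tested.

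At the 4-cell stage most of the 2-cell differences were small. With T247, 1 of 54 genes rose and 5 fell (17.8% of all genes called, 11.9% up and 5.84% down), with a median LFC of -0.34 against -0.00 for all genes. Cdc20 had an LFC of -0.11, Espl1 of -0.08, Wee1 of -0.46, Cdc25c of -0.43, Prc1 of -0.32 and Ska1 of -0.18, and none was called. Cdk1 read 11.76, 11.80 and 11.98 in controls and 12.13, 12.11 and 12.07 with T247 (LFC 0.26). Without the fold limit 25 genes were lower and 6 higher at adjusted p below 0.05 (22.2% and 22.9% of all genes).

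Of the 6 genes called at the 4-cell stage, Stag2, Smc4 and Ncapg encode subunits of cohesin and condensin. Stag2 read 11.21, 11.12 and 11.28 in controls and 9.26, 8.64 and 9.75 with T247, far below, and fell by 1.98 ± 0.17 (adjusted p = 5.4e-10), whereas at the 2-cell stage its LFC was 0.01. Smc4 read 12.71, 12.57 and 12.82 in controls and 11.19, 10.89 and 11.48 with T247, and fell by 1.52 ± 0.13 (adjusted p = 3.02e-10). Ncapg was at least 2.40-fold lower, with no T247 array and 1 of 3 control arrays well above background. Depdc1a fell by 1.25 and Ect2 by 1.22. Smc4 and Depdc1a had also been called lower with T247 at the 2-cell stage. Ccna1 went the other way and was measured 3.73-fold higher with T247, reading 4.20, 5.06 and 5.32 against control arrays of 2.02, 3.47 and 3.41. None of those control arrays was well above background, so the fold is approximate.

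The change of a drug's effect between stages was tested as an interaction. Going from 1-cell to 2-cell embryos, the T247 effect moved down in 15 of 54 genes and up in 0 (limma; 19.1% of all genes called, 4.37% up and 14.7% down), and the MGCD0103 effect down in 14 and up in 4 (21.7%, with 6.22% up and 15.5% down). Going on to 4-cell embryos, the T247 effect moved up in 15 and down in 2 (25.9%, with 18.6% up and 7.28% down). Without 2-cell control replicate 1 these splits were 14 down and 2 up, 15 down and 7 up, and 15 up and 8 down. Among the upward shifts were Ncapd2 (2.13), Prc1 (1.69), Espl1 (1.58), Ska1 (1.57) and Cdc20 (1.41), and the downward ones were Stag2 (-1.99) and Cdc25a (-1.46).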

How the data were processed

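RNA of 100 oocytes or embryos per sample was hybridised to one-colour Agilent mouse arrays, and the authors deposited the scanner output of 39 arrays; the intensity used, per the file headers, was the processed signal of Feature Extraction, which has the local background subtracted. The submitters' notes give Feature Extraction 9.5.1.1 and the file headers 10.7.1.1. The authors also deposited a table of log2 values for 19143 probes, and the study's methods describe imputation of missing spots and smooth quantile normalization, but whether the table holds those values is not stated in the sources used here; its columns correlated at 0.998 or above with the scanner values and had medians of 8.89 to 11.0, and it served as an alternative covering 49 of the 55 genes. The file of 1-cell MGCD0103 replicate 1 had been saved with rounded values and damaged gene names, so names were taken from another array.

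Control spots were left out, and 31380 of 55681 probes were named by the gene name or accession in the files, updated through RefSeq; Ska3 was found by accession. Genes entered the tests if a probe had at least 1 positive and significant array of the 3 of every condition in the inhibitor experiment (8 conditions), and the brightest such probe stood for the gene. Log2 intensities were normalized by smooth quantile normalization over the 13 conditions (window 0.05) and fitted with limma 3.58.1 in R 4.3.3, with all 39 arrays in 1 fit; 3.88% of the fitted values came from spots that were not positive and significant. Changes are called at an absolute LFC of 1 and an adjusted p below 0.05. A gene well above background on no array of a group has only an approximate bound there. It sets the bright mean against the dim group, raised to the lowest signal well above background of any probe on each array. Dim signals already above that level entered as measured. On data simulated for the 2-cell T247 comparison (16002 genes), 80% of changes of 1.5 log2 units and 97% of changes of 3 were called, all with the right direction, and 6 unchanged genes were called. The simulation gave each gene the same independent spread on every array and held no outlying array. These rates therefore need not hold for the measured 2-cell comparisons, where control replicate 1 stood apart. The number of arrays limits the precision. The p-values rest on 1 moderated estimate of the spread per gene, shared by the 13 conditions of 3 samples each. They do not measure the spread of the samples compared alone, and can be too small where a condition scatters more, as the 2-cell controls did.

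Named genes are mainly, in each comparison, up to 4 that rose and up to 4 that fell most among those called without overlap of arrays. To these come 15 regulators, not each given in every comparison, and others named beside a list or figure. The genes, lists and tests were chosen with earlier results of these data known. Same-numbered controls of different stages shared a slide, and their deviations from the group means correlated at 0.073 on average (-0.028 to 0.258), against -0.036 for different numbers; treated numbers do not pair. Promoter shares count both strands of the 250 bases before each start. Figures were drawn with matplotlib 3.10.9 in Python 3.11.15.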

Additional observations from a re-analysis of the deposited data

Results flagged for a closer look

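The effect of an inhibitor differed between stages by the interaction term of the limma fit in the following genes, with the change in LFC given for each and adjusted p below 0.05. Within the 54 tested genes the T247 effect differed between the 1-cell and 2-cell stages in 15, the MGCD0103 effect between these stages in 18, and the T247 effect between the 2-cell and 4-cell stages in 17. The T247 effect moved down from the 1-cell to the 2-cell stage in Cdk1 (-2.78), Cdc25c (-1.78), Wee1 (-1.22), Plk1 (-1.10), Aurka (-1.28), Zwilch (-1.94), Ercc6l (-1.44), Espl1 (-1.29), Ube2c (-1.27), Ska1 (-2.12), Ska3 (-2.07), Prc1 (-1.61), Nusap1 (-1.19), Smc4 (-1.37) and Ncapd2 (-1.28).

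The MGCD0103 effect moved down from the 1-cell to the 2-cell stage in Cdk1 (-3.34), Cdc25c (-2.44), Wee1 (-1.82), Plk1 (-1.05), Zwilch (-2.17), Ercc6l (-1.44), Cdc20 (-1.03), Espl1 (-1.33), Ube2c (-1.10), Ndc80 (-1.05), Ska1 (-2.14), Ska3 (-2.01), Smc4 (-1.01) and Ncapd2 (-1.87). It moved up in Ccnb1 (1.48), Mad2l1 (1.25), Nuf2 (1.25) and Fbxo43 (1.72). In each of these 4 genes the 2-cell control arrays overlapped the treated ones.

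The T247 effect moved up from the 2-cell to the 4-cell stage in Cdk1 (1.26), Ccna1 (3.01), Cdc25c (1.05), Plk1 (1.16), Cdca8 (1.04), Ercc6l (1.31), Cdc20 (1.41), Espl1 (1.58), Pttg1 (1.06), Ube2c (1.07), Spc25 (1.20), Ska1 (1.57), Ska3 (1.28), Prc1 (1.69) and Ncapd2 (2.13), and down in Cdc25a (-1.46) and Stag2 (-1.99). The Ccna1 value rests on 4-cell controls that were not well above background. All 2-cell effects share the same 3 control arrays, of which replicate 1 stood apart. Leaving out 1 array ended the call of Plk1 and Nusap1 for T247 and of Ccnb1, Mad2l1, Nuf2, Fbxo43, Plk1, Cdc20, Ndc80 and Smc4 for MGCD0103 between the first pair of stages, and of Cdk1, Cdc25c, Cdca8 and Pttg1 for T247 between the 2-cell and 4-cell stages.

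A probe outside the tests was well above background on all 3 treated arrays and on no control array in 4 cases. The differences are set against groups not well above background, so they stand only for approximate bounds. Aurkb differed by 1.95 at the 2-cell stage with T247, at least 3.24-fold. The Cdk1 probe A_55_P2016647 differed by 0.42 at the 1-cell stage with T247 (at least 1.34-fold), by 0.50 at the 1-cell stage with MGCD0103 (at least 1.41-fold) and by 1.35 at the 2-cell stage with MGCD0103 (at least 2.36-fold), where the brightest Cdk1 probe fell by 1.85.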

How the results depend on the processing

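Counts of called genes, both directions together, moved by more than 1.5 times under these settings, and the cause was not tested. At the 1-cell stage the T247 count of 2 became 4 after subtracting the 75th percentile of each array, 0 with normexp background correction and 1 with the mean of a gene's probes, and the MGCD0103 count of 1 became 2, 0 and 0, and 0 with only the arrays compared. The T247 4-cell count of 6 became 3 with normexp. Between the inhibitors at the 2-cell stage the 4 became 2 with quantile normalization and 2 with the 75th percentile. From 4-cell to 8-cell the 2 became 1 with normexp, with dim spots left missing, in the authors' table, with only the arrays compared and with array weights. From 8-cell to morula the 16 became 6 (quantile) and 8 (75th percentile), and from morula to blastocyst the 6 became 3 (quantile) and 3 (normexp). The change of the T247 effect from 1-cell to 2-cell was called in 9 genes (quantile) and 8 (75th percentile) instead of 15, and from 2-cell to 4-cell in 10 (75th percentile) instead of 17.

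Of 239 called single-gene results, 128 kept direction and call under every alternative run, 110 lost the call under at least 1 and 5 reversed under at least 1. The stage of the highest and lowest mean under the other scalings was added after seeing the data. With the mean of the probes Cdk1 at the 2-cell stage with T247 became 0.26 and Pttg1 from 1-cell to 2-cell 0.54. From GV to MII, Bub1b became 0.35, Incenp 0.0082 and Depdc1a 0.11 with the 75th percentile, and Depdc1a 0.17 with quantile normalization. Leaving out 1 array gave 1 to 4 genes for T247 and 0 to 2 for MGCD0103 at the 1-cell stage (the extremes without control replicates 2 and 1), 17 to 20 and 14 to 23 at the 2-cell stage (23 without control replicate 1), 6 to 8 for T247 at the 4-cell stage, 4 to 7 between the inhibitors at the 2-cell stage (7 without T247 replicate 2 or MGCD0103 replicate 3), and 2 to 4 from 4-cell to 8-cell (4 without 8-cell replicate 3). With the replicate block the T247 2-cell count was 20 instead of 19, and it moved no other count of calls by over 1.5 times. For the untreated stages, slide was a fixed term in a fit of the control arrays alone. That fit gave 15 from 8-cell to morula, 5 from morula to blastocyst and the same counts elsewhere. For the other comparisons, slide as a random block over all arrays (consensus correlation 0.069) left the counts the same. Slide as a fixed term over all arrays, chosen after seeing the data, gave 15, 18 and 16 for the 3 changes of effect between stages. Dim signal limits Ccna1, Ncapg, Mos and Fbxo43 after the 2-cell stage and Cenpf from the 2-cell stage on. In MII oocytes and at the 1-cell stage it limits Cdk1, Ccna1 and Cenpf.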
